A study of Homo sapiens with 2 samples.

Results

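TREM2, MCEMP1 and the CD300 proteins are surface molecules of myeloid cells. Their mRNA is described here together with that of TREM1 and of the adaptors TYROBP and FCER1G. The genes were chosen by symbol, as TREM2, MCEMP1, CD300A and CD300LF plus TREM1, TYROBP, FCER1G and every other gene whose symbol starts with CD300. That gave 13 genes, of which 7 had a value in both libraries, out of 16145 genes with a value in either. TREM2, MCEMP1, CD300A and CD300LF were picked with their change between the libraries known, so all values of that change below are a description and no test was made. The remaining 6 genes, TYROBP, CD300E, CD300H, CD300LB, CD300LD and CD300LG, were not analysed here.

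The data are RNA-seq values of 2 libraries, 1 per group, from cells labelled HAL-01, a human line of pre-B acute lymphoblastic leukaemia. The AG culture was exposed for 24 h to 0.8 mM of 1,5-AG, that is 1,5-anhydroglucitol, a sugar that resembles glucose. The labels do not say what the Control culture received, and no genetic change or further agent is named for either culture. With 1 culture per group, a difference between the libraries cannot be told apart from any other difference between the cultures. The unit is FPKM, in which fragments are divided by the length of the gene and the size of the library. Levels are thus scaled for these 2 quantities and for no other difference between genes or libraries. The implied totals were 16240451 fragments in Control and 14857372 in AG.

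The lineage markers did not follow the label. Of 11 B cell precursor markers 7 had a value, and these summed to 2.57 FPKM in Control and 2.61 in AG, with CD79A at 0.275 and 0.351. Of 11 monocyte and granulocyte markers 7 had a value, summing to 952 and 497 FPKM, of which the granule protease CTSG had 743 and 194. Without CTSG the sum was 209 FPKM in Control and 303 in AG. Of these 7 markers 2 were at least 1.5-fold higher, 2 were lower and 3 lay between. S100A9, a calcium-binding protein, had 66.3 and 131 FPKM, and ITGAM, the integrin chain CD11b, had 1.55 and 8.30. MPO, the myeloperoxidase of granules, was lower together with CTSG, at 4.75 and 1.70. The 6 mast cell markers, among them KIT and the tryptases, were not analysed here. What part the lineage of the cells has in the receptor values was not tested.

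TREM2 is a receptor with an immunoglobulin-like domain that binds lipids and lipoproteins. It has almost no signalling tail and acts through TYROBP, whose cytoplasmic ITAM motif recruits the kinase SYK. TREM1 uses the same adaptor and amplifies inflammatory responses. The CD300 proteins are paired receptors, several of which bind phospholipids, and their genes lie together on chromosome 17 except CD300LG, which lies apart on the same chromosome. CD300A and CD300LF carry inhibitory ITIM motifs in their tails, and CD300C is an activating relative. FCER1G, the common gamma chain of Fc receptors, is another ITAM adaptor. MCEMP1 is a single-pass membrane protein named for its expression in mast cells and also made by monocytes and neutrophils.

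Of the 7 genes with a value, TREM2, MCEMP1 and CD300A were higher in AG by a like factor, a little over 2-fold each. CD300LF, CD300C and the adaptor FCER1G were higher by less than 1.5-fold, with ratios of 1.29, 1.09 and 1.30. TREM1 stayed under 1 FPKM in both libraries. Of the 6 genes whose mean reached 1 FPKM, 3 were at least 1.5-fold higher on the log2(FPKM + 1) scale and 0 were lower. Among all 5528 genes with that mean, 3.6% were at least 1.5-fold higher and 3.33% at least 1.5-fold lower. The same 3 genes were also at least 2-fold higher, against 1.18% of all genes, and 0 were at least 2-fold lower, against 0.886%. CD300A passed the 2-fold line only just, at 2.003-fold on this scale. The median log2 ratio of the 6 genes was 0.68, beside -0.03 over all genes. Because the genes were picked with this contrast known, nothing is read from these shares. In bulk RNA, a change in the number of cells of a type and a change in RNA per cell cannot be told apart.

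**Figure D1:**
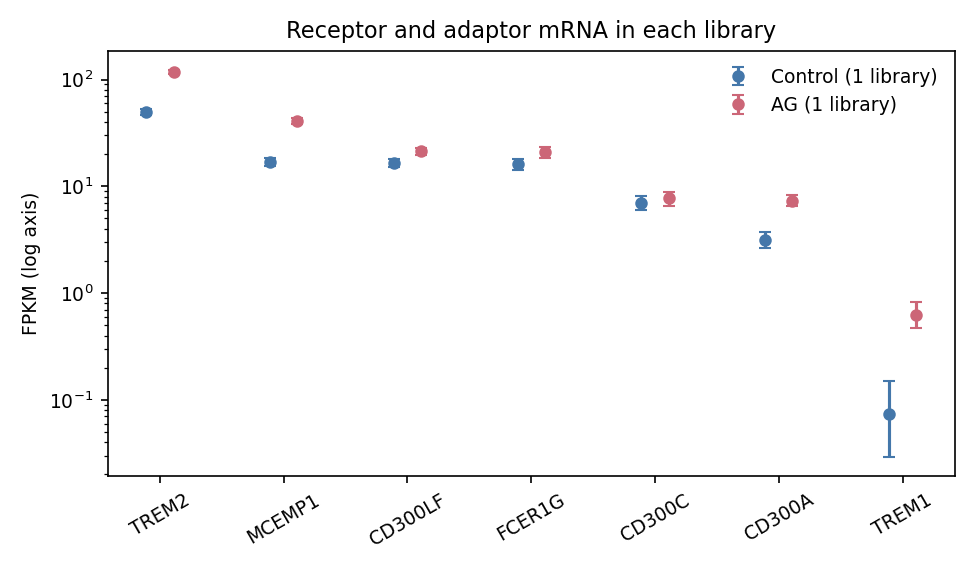
FPKM (log axis) of the 7 receptor and adaptor genes in the Control library (blue) and the AG library (red), with bars for the exact 95% Poisson interval of the fragment count. TREM2 is the most abundant in both libraries, at 49.6 and 117 FPKM, and TREM1 is the least abundant, at 0.0732 and 0.628.

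TREM2 had 49.6 FPKM in Control and 117 in AG. These values rested on 882 and 1906 fragments. The AG value was the higher, and the counting intervals of 46.4 to 53.0 and 112 to 123 FPKM did not overlap. The ratio was 2.36 (95% counting interval 2.18 to 2.56) and the log2 ratio with a pseudocount of 1 FPKM was 1.22. By level, TREM2 ranked 344 among 13342 genes in Control and 112 among 13351 in AG. By log2 ratio it was at position 34 from the top of 5528 genes. Counting intervals cover the sampling of fragments only, not the spread between cultures.

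TREM1 lay far below TREM2 in both libraries, although the 2 genes start 124 kb apart in the same cluster on chromosome 6. It had 0.0732 FPKM in Control, from 7 fragments, and 0.628 in AG, from 55 fragments. The ratio was 8.59, with a wide counting interval of 3.90 to 22.4. The gene did not reach a mean of 1 FPKM and so entered none of the counts above. The length that gave whole fragments for TREM1 was 5891 bases, against 4329 bases of annotated exon, so the authors' gene model differed from the one used here. Among the TREM-like genes, TREML2 had 0.146 FPKM in Control against 0.124 in AG, and TREML4 had 0.0250 in AG only. Of these 4 genes with a value, TREM2 was the only one above 1 FPKM in either library.

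FCER1G had 16.0 FPKM in Control and 20.9 in AG, from 251 and 299 fragments. The AG value was higher by a ratio of 1.30 (1.10 to 1.55), which is within 1.5-fold. Relative to FCER1G, the FPKM of TREM2 was 3.09 times as high in Control and 5.61 times as high in AG. CD300LF stayed near the level of FCER1G, at 1.03 and 1.02 times its FPKM.

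MCEMP1 had 17.0 FPKM in Control and 40.8 in AG. The fragments numbered 527 and 1155, and the intervals of 15.6 to 18.5 and 38.5 to 43.2 FPKM lay apart. The ratio was 2.40 (2.16 to 2.66), with a log2 ratio of 1.21, at position 36 of 5528 genes. Its rank by level was 1243 in Control and 455 in AG. MCEMP1 overlaps AC008763.3, an annotated gene on the same strand that holds 6.11% of the 50-base stretches of the MCEMP1 transcripts. Fragments from that overlap cannot be assigned to either gene with certainty.

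The CD300 family was described from 3 genes, since 5 of its 8 were not analysed here. The counting interval of the CD300A ratio lay above those of CD300LF and CD300C, which overlapped each other. CD300A had 3.17 FPKM in Control and 7.35 in AG, from 139 and 295 fragments, with intervals of 2.66 to 3.74 and 6.54 to 8.24. The AG value was higher by a ratio of 2.32 (1.89 to 2.86), or 1.00 on the log2 scale with the pseudocount. CD300LF had 16.5 and 21.2 FPKM, from 578 and 682 fragments. Its ratio was 1.29 (1.15 to 1.44), a log2 ratio of 0.35, so it stayed within 1.5-fold while its counting interval lay above 1. CD300C had 7.03 and 7.68 FPKM and the same 174 fragments in both libraries, a ratio of 1.09 (0.881 to 1.36) that includes 1. That fragment number is the one whose gene length came closest to the annotated exons, at 1524 against 1517 bases.

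Of the 3 CD300 genes with a value, CD300LF was the most abundant in both libraries. In Control, CD300C was above CD300A and their counting intervals lay apart. In AG the interval of CD300A overlapped that of CD300C, 6.59 to 8.92 FPKM, so their order there is not resolved by counting. CD300A made up 11.9% of the FPKM summed over these 3 genes in Control and 20.3% in AG. The share of CD300LF was 61.8% and 58.6%, and that of CD300C was 26.4% and 21.2%. The sum itself was 26.7 FPKM in Control and 36.3 in AG.

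**Figure D2:**
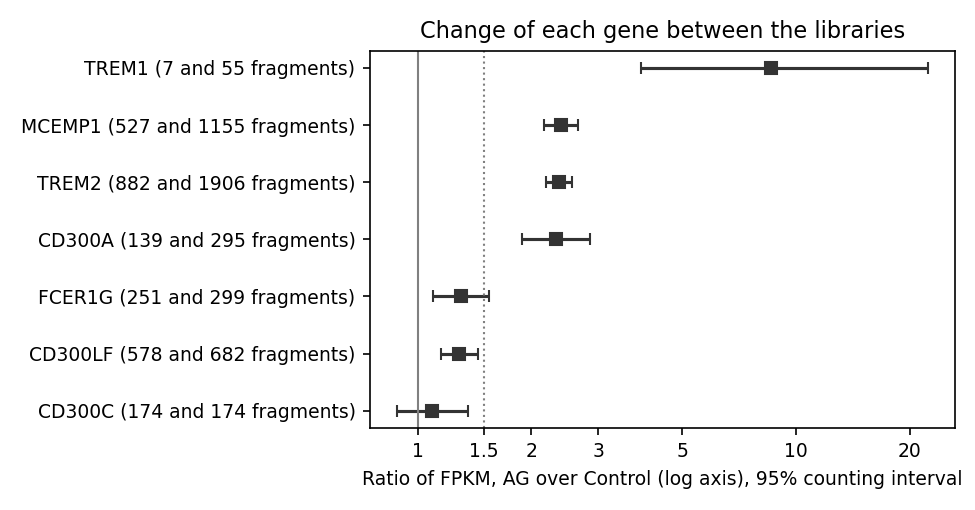
Ratio of AG to Control FPKM (log axis) for each of the 7 genes, with the exact 95% counting interval and the fragments in Control and AG beside the name. The solid line marks a ratio of 1 and the dotted line 1.5. TREM2, MCEMP1, CD300A and the scarcely detected TREM1 have intervals above 1.5, and the interval of CD300C, 0.881 to 1.36, includes 1.

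The quotient of 2 genes' ratios does not depend on the library totals. The ratio of CD300A was 1.80 times that of CD300LF and 2.12 times that of CD300C. The ratio of TREM2 was 1.81 times that of FCER1G. The ratio of MCEMP1 was 1.01 times that of TREM2, and the ratio of TREM2 was 1.02 times that of CD300A. These quotients describe genes of which 4 were picked with their change known, and nothing is read from them.

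**Figure D3:**
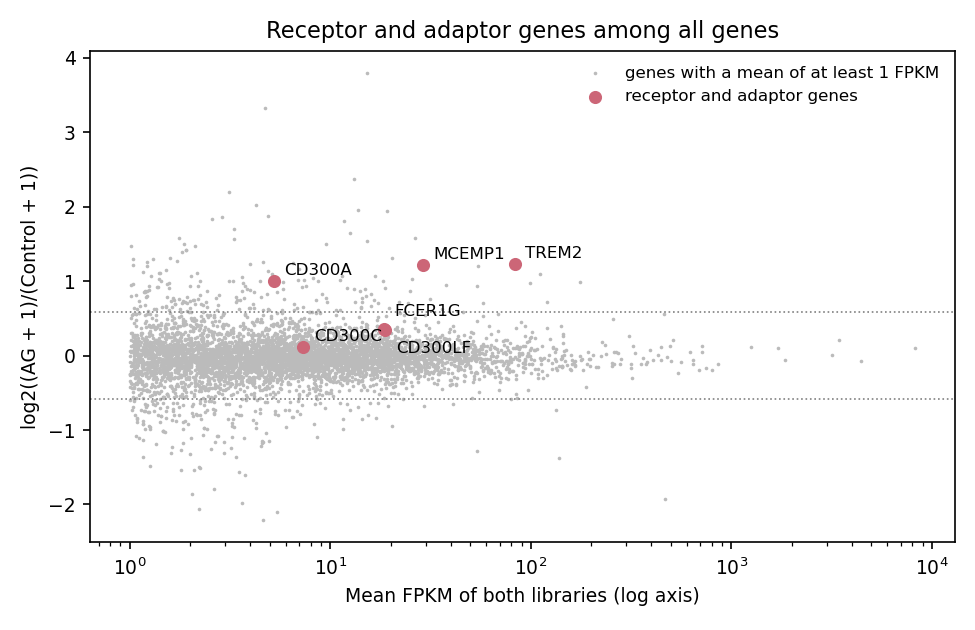
The log2 ratio of AG to Control, with a pseudocount of 1 FPKM, against the mean FPKM of both libraries (log axis), for 5528 genes in grey and the 6 receptor and adaptor genes of that mean in red. Dotted lines mark 1.5-fold. TREM2, MCEMP1 and CD300A lie above the upper line at log2 ratios of 1.22, 1.21 and 1.00, and CD300C, CD300LF and FCER1G lie between the lines.

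In GRCh38 coordinates of GENCODE 29, TREM2 (ENSG00000095970) lies on chromosome 6 at 41158506 to 41163186 and TREM1 (ENSG00000124731) at 41267926 to 41286719, both on the minus strand. CD300A (ENSG00000167851) lies on the plus strand of chromosome 17 at 74466399 to 74484796. CD300C (ENSG00000167850) follows at 74541108 to 74546143 and CD300LF (ENSG00000186074) at 74694311 to 74712978, both on the minus strand. MCEMP1 (ENSG00000183019) lies on chromosome 19 at 7676628 to 7679826 and FCER1G (ENSG00000158869) on chromosome 1 at 161215234 to 161220699, both on the plus strand. All are protein-coding, and each value covers the whole gene, so isoforms are not resolved. CD300LF overlaps RAB37 on the opposite strand. Of the 50-base stretches of the CD300A transcripts 0.869% also occur in CD300C. TREM2, CD300LF and TREM1 shared no such stretch with any other annotated gene.

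No gene with a mean of at least 1 FPKM within 200 kb of MCEMP1, CD300A, CD300LF or FCER1G was past 1.5-fold. Among all genes with that mean 93.1% were within 1.5-fold, so nothing is read from this. Near TREM1 and CD300C, the neighbours past 1.5-fold were TREM2 and CD300A themselves, both higher. Of the 5 genes with a value within 200 kb of TREM2, 0 reached a mean of 1 FPKM. Around MCEMP1, 5 neighbours did, with log2 ratios from -0.51 for PCP2 to 0.20 for PNPLA6, and 0 were past 1.5-fold. CD300C, the only neighbour of CD300A with that mean, starts 79.7 kb away and had a log2 ratio of 0.11. Around CD300LF, 5 neighbours ran from -0.31 for FDXR, the mitochondrial ferredoxin reductase, to 0.42 for TMEM104. The 13 neighbours of FCER1G ran from -0.18 for NIT1 to 0.30 for ARHGAP30.

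**Figure D4:**
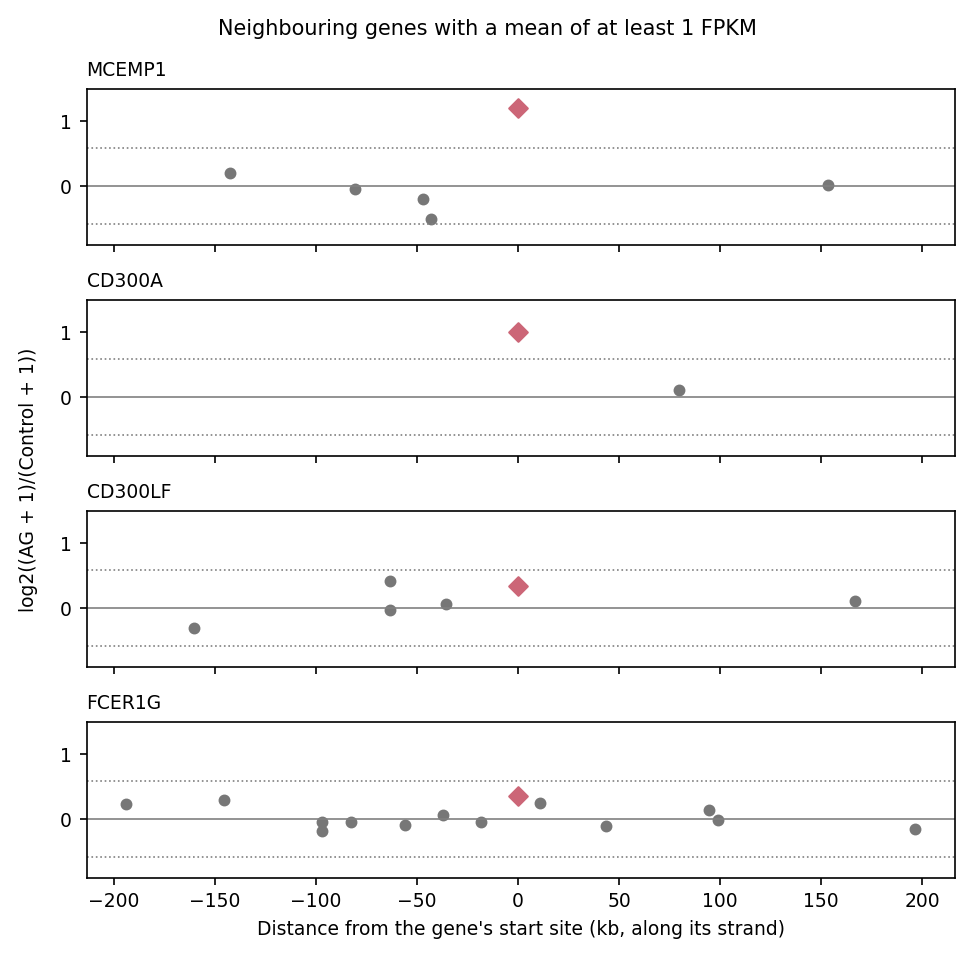
Log2 ratio of AG to Control (pseudocount 1 FPKM) of genes within 200 kb of MCEMP1, CD300A, CD300LF and FCER1G (grey), against the distance in kb from the start of the named gene (red diamond) along its strand. Dotted lines mark 1.5-fold, and all grey points lie between them, from -0.51 to 0.42.

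Stretches before the start sites of the 3 genes below are shown because these genes had ratios above 2 and because windows free of annotated exons could be taken for them. They are RefSeq sequences of GRCh38.p14, printed along the strand of the gene up to 250 bases before the RefSeq start, and cut where GENCODE 29 places an exon. Both strands were searched for 5 motifs named for factors of myeloid cells: GAGGAAG (PU.1), TTGCNNAA (C/EBP), TGANTCA (AP-1), TGTGGT (RUNX) and CACGTG (the E-box of MITF and TFE factors). Capitals mark every match, and no matches overlap.
TREM2, chr6:41163187-41163366, minus strand: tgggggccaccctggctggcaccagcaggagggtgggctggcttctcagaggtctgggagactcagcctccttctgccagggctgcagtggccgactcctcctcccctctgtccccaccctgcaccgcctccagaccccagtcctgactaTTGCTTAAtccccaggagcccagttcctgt
TREM1, chr6:41286720-41286932, minus strand: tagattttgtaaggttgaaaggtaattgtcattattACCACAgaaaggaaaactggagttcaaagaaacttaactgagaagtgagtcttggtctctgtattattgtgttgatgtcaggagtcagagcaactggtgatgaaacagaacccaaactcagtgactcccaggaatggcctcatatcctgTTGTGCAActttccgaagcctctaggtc
CD300A, chr17:74466123-74466372, plus strand: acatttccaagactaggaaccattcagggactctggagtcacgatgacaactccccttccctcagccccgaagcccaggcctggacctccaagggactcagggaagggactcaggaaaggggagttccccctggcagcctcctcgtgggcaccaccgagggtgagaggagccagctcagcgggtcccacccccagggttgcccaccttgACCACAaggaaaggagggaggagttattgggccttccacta

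The TREM2 window of 180 bases held TTGCNNAA once, with its first base 100 bases before the start, as did 6.97% of 34796 promoters over the same bases. The TREM1 window of 213 bases held TTGCNNAA on the opposite strand, 65 bases before the start, and TGTGGT on the opposite strand. These occur in 8.06% and 9.52% of promoters over the same bases. The CD300A window of 250 bases held TGTGGT on the opposite strand, 41 bases before the start, as did 11.0% of promoters. The PU.1, AP-1 and E-box motifs had no match in these 3 windows. The FCER1G window of 189 bases held none of the 5 motifs. The 250 bases before the RefSeq start of MCEMP1 lie wholly within GENCODE exons and are not shown. A further RefSeq start of CD300A is not shown either, as 235 of its 250 bases lie in GENCODE exons. For CD300LF and CD300C the promoter sequences used held no entry. A match is a description of letters and not a bound site.

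The wider pathway was described with 11 lists of 160 distinct genes, written with earlier results of these data known. Of these genes 98 were not analysed here and 33 had a mean of at least 1 FPKM in both libraries. Of the 33 genes, 7 were at least 1.5-fold higher, TREM2 among them, 0 were lower and 26 lay between. Their median log2 ratio was 0.20. Among all genes with that mean, 3.6% were higher, 3.33% were lower and 93.1% were within 1.5-fold. A list whose members lay within 1.5-fold is therefore close to the background.

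The list of ITAM signalling enzymes and scaffolds held 19 genes, of which 11 were not analysed here, SYK, LYN, PLCG2 and BTK among them. Of the 8 with that mean, 1 was higher, 7 were within 1.5-fold and the median log2 ratio was 0.02. Over all genes with that mean, 3.6% were higher and 93.1% within 1.5-fold. The adaptor proteins GRB2 and LAT2 had 107 and 63.5 FPKM in Control and 102 and 63.4 in AG. The higher gene was FGR, a SRC family kinase that phosphorylates ITAMs and ITIMs, with 1.18 FPKM in Control and 29.3 in AG.

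The list of phosphatases and other brakes on signalling held 10 genes. Of these, 5 were not analysed here, PTPN6 (the phosphatase SHP1) among them, and 1 had a value in AG only. All 4 with that mean lay within 1.5-fold, as did 93.1% of all genes, and their median on the log2 scale was 0.15. PTPN11, the phosphatase SHP2, had 44.9 FPKM in Control against 51.5 in AG, for a ratio of 1.15 (1.10 to 1.19). CBL, a ubiquitin ligase, had 30.1 and 36.4, a ratio of 1.21 (1.16 to 1.25). DOK3, a docking protein, had the lowest ratio of the 4, with 14.8 and 12.7 FPKM, a ratio of 0.855 (0.786 to 0.930).

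The list of other inhibitory and paired receptors of myeloid cells held 29 genes, of which 20 were not analysed here and 3 had that mean. These 3 were within 1.5-fold, as were 93.1% of all genes with that mean. CD33, an inhibitory receptor for sialic acids, stood at 12.9 FPKM in Control against 15.9 in AG, for a ratio of 1.23 (1.14 to 1.33), close to that of CD300LF. SIGLEC10, of the same family, had 1.44 and 1.60. In the list of neutrophil and mast cell membrane genes, the chemokine receptor CXCR2 had 14.2 and 17.3 and the adhesion molecule CEACAM6 a log2 ratio of -0.11. Of the phosphatidylserine and lipid uptake receptors, the scavenger receptor CD36 had 2.17 and 3.56, a plain ratio of 1.64 (1.44 to 1.87) that the pseudocount brought under 1.5-fold. MARCO, another scavenger receptor, had 0.871 and 1.21. None of the Fc receptors reached the mean, and 7 of the 10 were not analysed here.

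Genes that accompany TREM2 in lipid-associated macrophages were described as a list of 19, of which 11 were not analysed here. Of the 7 with that mean, 4 were at least 1.5-fold higher, 0 were lower and the median was 0.70. Over all genes with that mean, 3.6% were higher, 3.33% were lower and the median was -0.03. This list holds TREM2 itself, and its members PLIN2 and CTSD were already known to be high in AG. PLIN2, which coats lipid droplets, had 7.41 FPKM in Control against 31.2 in AG. LIPA, the lysosomal acid lipase, had 18.3 and 30.4, a ratio of 1.66 (1.55 to 1.77). CTSD, a lysosomal protease, had 7.08 and 12.3. CD63, a tetraspanin of late endosomes, had 102 and 94.5 FPKM, a ratio of 0.924 (0.882 to 0.967). FABP5, a fatty acid binding protein, had 21.2 and 24.9.

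Among the myeloid transcription factors, CEBPB, a C/EBP factor, had 4.25 FPKM in Control against 9.63 in AG, for a ratio of 2.26 (1.82 to 2.82). IRF8 had 189 and 196 and TFEC, a relative of MITF, had 20.1 and 22.7. In the list of TREM2 ligands and processing enzymes 12 of 15 genes were not analysed here. PSENEN, a gamma-secretase subunit, was its single gene with that mean, at 1.68 and 0.991 FPKM, a ratio of 0.591 (0.325 to 1.04).

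**Figure D5:**
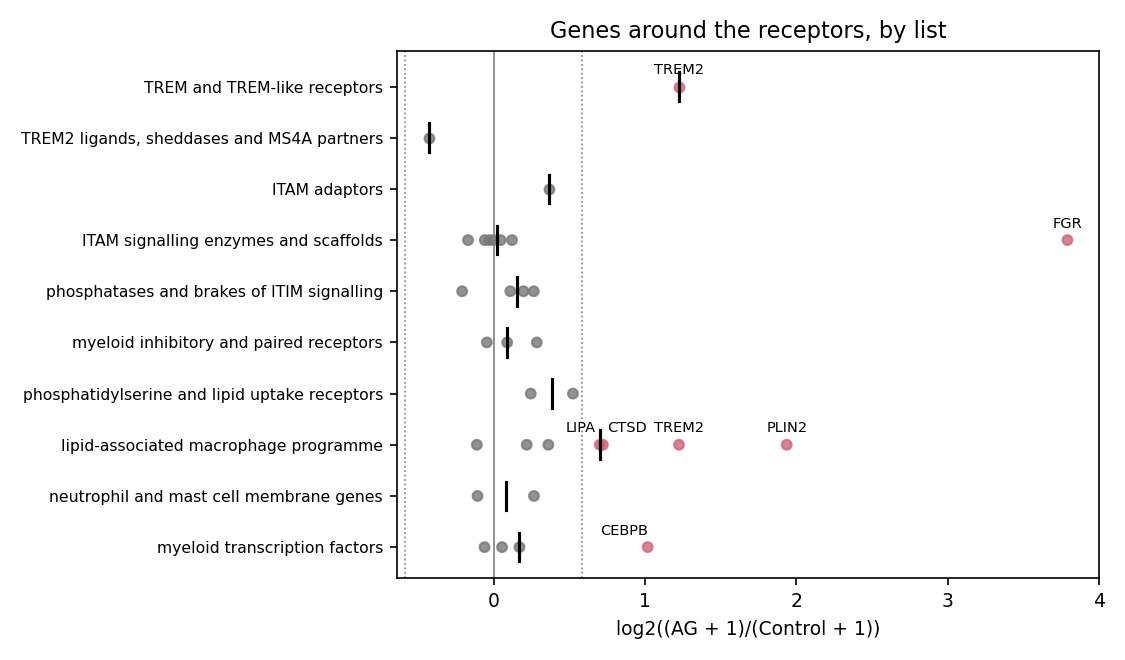
Log2 ratio of AG to Control (pseudocount 1 FPKM) of list members with a mean of at least 1 FPKM, 1 row per list, with the median over all such members as a black bar and 1.5-fold as dotted lines. Not every member is drawn. Those drawn that were at least 1.5-fold higher are red and named, from LIPA at 0.70 to FGR at 3.79, and no point lies below the lower line.

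The protein-coding genes closest to TREM2 in level and change, by Euclidean distance on log2(FPKM + 1) over the 2 libraries, were S100A9, INSIG1 and LYZ. S100A9, a calcium-binding protein of neutrophils and monocytes, had 66.3 FPKM in Control against 131 in AG, at a distance of 0.44. INSIG1, a regulator of sterol synthesis, had 55.3 and 82.2 at 0.53, and LYZ, lysozyme, had 75.6 and 104 at 0.62. Closest to MCEMP1 were LRG1, a secreted glycoprotein, at 16.6 and 34.7 FPKM and a distance of 0.23, and IFNGR1, the interferon gamma receptor chain, at 17.3 and 32.5 and a distance of 0.32. RPL7A came next at 12.8 and 40.2, a distance of 0.38, and its value is uncertain, since 25.8% of the 50-base stretches of its transcripts also occur in other annotated genes, most often in the pseudogene RPL7AP6. With 2 libraries a distance orders genes only by these 2 levels.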

How the data were processed

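The authors deposited FPKM per Ensembl gene ID, 1 library per group. Per the submitters' processing notes, the tools were Trimmomatic, HISAT2, Cufflinks and HTSeq and the build was hg38, with no versions named. Per the labels' protocols, RNA was taken up in Trizol and a TruSeq kit that keeps the strand was used. No source used here states the annotation, the strand setting or a filter.

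IDs were matched to GENCODE 29 (97.1% of 16145). FPKM times exon length was whole, within 0.01, in 88.4% (Control) and 88.1% (AG) of single-transcript genes, which gave the library totals. Fragment numbers behind a gene were those that were whole in both libraries, within 0.0002, at the length closest to its annotated exons. They gave exact 95% Clopper-Pearson intervals of ratios and Poisson intervals of levels. With 1 library in each group there was no test of the conditions. Changes are log2((AG + 1)/(Control + 1)), whose pseudocount of 1 FPKM understates low genes, for genes in both files whose mean reached 1 FPKM. Files list no zeros, and a gene without a value was not read as unexpressed.

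Named were all receptor and adaptor genes with a value, in each list the 2 most abundant genes and those past 1.5-fold, and the 3 genes nearest to TREM2 and MCEMP1. The values of some genes are not reported here. DOK3, FABP5, the neighbours and CD79A were named after their values were seen. Members and lists were chosen with earlier results of these data known. The steps were tested on simulated data. Alternatives were pseudocounts, filters, scalings and a 2-fold threshold. The work used scipy 1.17.1, numpy 2.4.6, matplotlib 3.10.9 and pandas 2.3.3 under Python 3.11.15.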

Additional observations from a re-analysis of the deposited data

How the results depend on the processing

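The counts of receptor and adaptor genes at least 1.5-fold higher (3) and lower (0) held with pseudocounts of 0.1 and 5 FPKM, with a mean of at least 5 FPKM, with rescaling to a common total, with scaling by the median of ratios and at 2-fold. Without a filter on low values TREM1 was added, for 4 higher and 0 lower. With a pseudocount of 5 FPKM the log2 ratio of MCEMP1 was 1.06 and that of CD300A 0.60, only just past 1.5-fold. The count at 2-fold likewise includes CD300A by a narrow margin. The scalings moved all log2 ratios by at most 0.04. Without a filter on low values 11 genes of the context lists were past 1.5-fold, against 7. Of 58 recomputed list medians, 10 moved by 0.1 or more. With 1 library per group no library could be left out and no paired analysis was possible. Depth limits TREM1, with 7 fragments in Control, more than the other receptors.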

Other observations

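Of the genes of the 11 lists, 16 besides TREM1 had a value in both libraries but a mean under 1 FPKM, and so lay outside the comparison. Of these 13 had the higher FPKM in AG and 3 in Control. The counting interval of the ratio lay above 1 for 6 genes, below 1 for 0, and included 1 for 10. The same counts were not made over all genes with a mean under 1 FPKM, so nothing is read from them. The genes named next were chosen after their values were seen. LILRB1, an inhibitory receptor for MHC class I, stood at 0.381 FPKM in Control against 1.58 in AG, for a ratio of 4.15 (exact 95% interval from counting, 2.82 to 6.24). LILRA1, an activating relative, had 0.127 and 0.868, a ratio of 6.83 (3.21 to 16.7). OSCAR, an FCER1G-coupled collagen receptor, had 0.236 and 0.775. AXL, a receptor tyrosine kinase for phosphatidylserine-bound ligands, had 0.264 and 0.551, a ratio of 2.09 (1.22 to 3.67). ABCG1, a sterol exporter of the lipid-associated list, had 0.0805 and 1.00, a ratio of 12.4 (6.05 to 29.7). Others had counting intervals that included 1. PILRA, an inhibitory receptor, had a ratio of 1.17 (0.540 to 2.53). STAB2, a scavenger receptor, had 0.146 and 0.138, a ratio of 0.944 (0.483 to 1.83). The apolipoproteins APOA1 and CLU had ratios of 0.468 (0.189 to 1.07) and 1.37 (0.486 to 3.98). TREML3P, a pseudogene near TREM2 and in none of the lists, had 0.252 and 0.688.

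Of the list genes, 10 had a value in AG only and 2 in Control only, and these were not compared. Over all genes, 13342 had a value in Control, 13351 in AG and 10548 in both. Many genes of either library thus had no value in the other, and nothing is read from the 10 and 2. Among those with a value in AG only, PTPRC, the phosphatase CD45, had 26.0 FPKM. CEBPE, a granulocyte transcription factor, had 1.70, and MERTK, a receptor for apoptotic cells, had 1.31. STXBP2, which is in none of the lists, starts upstream of MCEMP1 and acts in granule release, also had a value in AG only, at 17.7.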
